A study of Mus musculus with 12 samples.

Results

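The transcripts of 5 MHC class II genes (H2-Aa, H2-Ab1, H2-Eb1, Cd74 and Ciita) and of 5 genes of myeloid cells (Lyz2, Mpeg1, Csf1r, Csf3r and Cd68) were followed library by library in sorted thymocytes, to ask whether they rose together or singly. These 10 genes were chosen by symbol from the 23234 features of the expression table. 12 RNA-seq libraries were made from CD24hiTCRβlo CD4+CD8+ thymocytes, which have not yet undergone positive selection, of C57BL/6 mice. 5 were from wild-type newborns, 3 were from newborns homozygous for Bcl11bm (Bcl11bm/m), and 4 were from Bcl11bfl/fl:Cd4-Cre mice. The Bcl11bm allele arose as an unintended frameshift and gives a truncated protein without the final zinc finger. Cd4-Cre deletes the floxed gene only once thymocytes reach the CD4+CD8+ stage, so these cells passed the earlier stages with intact Bcl11b. The age of the Bcl11bfl/fl:Cd4-Cre mice is not in the labels, and genotype and age therefore cannot be told apart in comparisons with this group. The protocol in the labels names other sorted cells, so the population given here is not certain.

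MHC class II molecules are pairs of an alpha and a beta chain that carry peptides to CD4+ T cells. The invariant chain, encoded by Cd74, guides the new pairs to the endosome, and the coactivator encoded by Ciita switches the whole set of genes on at a shared promoter module of X and Y boxes. In the mouse thymus these genes are known for epithelial cells, dendritic cells, macrophages and B cells, whereas mouse thymocytes express little of them. The myeloid genes encode proteins of phagocytes and receptors for their growth factors, and C57BL/6 mice lack a functional alpha chain of the I-E molecule, whose beta chain is H2-Eb1.

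The class II genes that encode the chains lie together on chromosome 17, and parts of their promoters are shown here because this promoter module is what the class II genes are known to share. RefSeq promoter windows (GRCm38.p6, 250 bases before to 50 after the start) were present for 6 of the 10 genes and were placed on NCBIM37 by exact match. H2-Ab1, Cd74, Ciita and Csf1r had none. ATTGG, the Y box, and the core of the X box were searched on both strands, and the matches are shown in capitals. The H2-Aa window lies at chr17:34424801-34424826 on the minus strand, the H2-Eb1 Y box at chr17:34442743-34442768 and its X box at chr17:34442713-34442738, both on the plus strand. H2-Oa, a related gene described below, is shown for comparison at chr17:34229271-34229296 on the plus strand.
H2-Aa Y box: gaattttctgATTGGttctggcgagt
H2-Eb1 Y box: tttgatgctgATTGGctcccagcact
H2-Oa Y box: aactgctctgATTGGctgcttaccgc
H2-Eb1 X box: tctaactAGCAACTGATGatgctgga

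The ATTGG shown lay 48 bases before the start of H2-Aa, 59 before that of H2-Eb1 and 43 before that of H2-Oa. ATTGG or its complement was present in 37.4% of 32851 promoters, and the X box core in 0.968%. That core also occurred 141 bases before the start of H2-Oa and was not found in the H2-Aa window. GAGGAA, the core letters bound by the myeloid factor PU.1, occurred in the windows of Csf3r and Cd68 and in 28.3% of all promoters. ATTGG or its complement also lay 230, 84 and 60 bases before the start of Cd68 and 103 before that of Mpeg1, so it was not confined to the class II genes. The Lyz2 window held none of the 3 motifs. A match describes letters only, and its absence says nothing about a factor.

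The deposit gives no read numbers. From the steps between low FPKM values (fragments scaled to transcript length and library size), the depth came to about 3890000 to 6800000 fragments in wild-type, 2730000 to 4140000 in Bcl11bm/m and 10780000 to 47350000 for Bcl11bfl/fl:Cd4-Cre libraries, the lowest being Bcl11bm/m replicate 1. The Bcl11bfl/fl:Cd4-Cre libraries were all deeper than the others, so that depth and group cannot be told apart. Bcl11b itself measured 132 to 292 FPKM in wild-type, 430 to 482 FPKM in Bcl11bm/m and 115 to 140 FPKM for Bcl11bfl/fl:Cd4-Cre libraries. Each value sums over all exons of the gene, and which of them were left is not shown. The sample descriptions call the wild-type libraries Bcl11bm/m and those of Bcl11bfl/fl:Cd4-Cre mice Bcl11b+/+; the genotypes used here are those of the titles and the overall design. Defining markers of CD4+CD8+ thymocytes were high in every library, with Cd4 at 281 to 651 FPKM, Cd8a at 591 to 1054 FPKM and Cd8b1 at 781 to 2099 FPKM. Bcl11bm/m replicate 1 stood apart in the genes examined here, being the highest of the 12 libraries for 9 of the 10, all but Csf3r, so the members' differences between Bcl11bm/m and the other groups are given with and without it.

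Cd74 had the highest mean FPKM of the 10 genes in each group. Its FPKM was 4.17, 10.8, 12.4, 14.6 and 6.65 in wild-type replicates 1 to 5, 100.1, 29.5 and 13.5 in Bcl11bm/m replicates 1 to 3, and 32.8, 15.0, 7.22 and 9.44 in Bcl11bfl/fl:Cd4-Cre replicates 1 to 4. The highest libraries were Bcl11bm/m replicate 1, Bcl11bfl/fl:Cd4-Cre replicate 1 and Bcl11bm/m replicate 2, and all 3 groups overlapped. In such bulk samples, fewer cells of a type and less RNA per cell cannot be told apart. Cd74 lies at chr18:60963502-60972300 (NCBIM37, plus strand). On the log2(FPKM + 1) scale used for all differences, which understates the change of genes with low values, Bcl11bm/m exceeded wild-type by 1.83 (standard error 0.61), with an adjusted p = 0.0770 by limma with Benjamini-Hochberg adjustment over all features tested. The threshold was 0.05. Without Bcl11bm/m replicate 1 the difference was 1.08 (adjusted p = 0.207, limma), and without replicate 3 it was 2.48 and passed (adjusted p = 0.0296, limma).

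H2-Aa, the alpha chain of I-A (chr17:34406276-34424772, minus strand), followed a similar order at lower values. It measured 0.332, 3.17, 4.34, 4.79 and 1.90 FPKM in wild-type libraries, 38.8, 6.44 and 3.55 FPKM in Bcl11bm/m and 7.40, 2.73, 1.25 and 2.72 FPKM for Bcl11bfl/fl:Cd4-Cre libraries, each in order of replicate. Bcl11bm/m replicate 1 was 5.25 times the next highest library, Bcl11bfl/fl:Cd4-Cre replicate 1, and wild-type replicate 1 was the lowest of all. The groups overlapped, and the difference of 1.67 between Bcl11bm/m and wild-type (standard error 0.74) did not pass (adjusted p = 0.169, limma). It was 0.75 without Bcl11bm/m replicate 1 (adjusted p = 0.442, limma).

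H2-Ab1, the beta chain of I-A (chr17:34400154-34406363, plus strand), had 3.77, 9.80, 6.33, 8.14 and 5.32 FPKM in wild-type, 40.6, 8.32 and 4.29 FPKM in Bcl11bm/m and 8.16, 5.33, 2.41 and 5.21 FPKM for Bcl11bfl/fl:Cd4-Cre libraries. Apart from Bcl11bm/m replicate 1, the 3 groups overlapped broadly. The difference of 0.79 between Bcl11bm/m and wild-type (adjusted p = 0.437, limma) became -0.070 without that library. H2-Ab1 and H2-Aa overlap by 88 bases on opposite strands, and because the sources differ on the library kit, reads from this overlap may not be told apart.

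H2-Eb1, the I-E beta chain (chr17:34442828-34453144, plus strand), had 0.392, 1.54, 2.22, 3.50 and 1.68 FPKM in wild-type, 20.7, 3.64 and 2.58 FPKM in Bcl11bm/m and 3.67, 1.74, 0.853 and 0.904 FPKM for Bcl11bfl/fl:Cd4-Cre libraries. The order of the libraries was again led by Bcl11bm/m replicate 1 at 5.63 times the next. Bcl11bm/m exceeded wild-type by 1.41 with overlapping groups (standard error 0.60, adjusted p = 0.155, limma), and by 0.61 without that library.

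Ciita, the class II transactivator (chr16:10480237-10527657, plus strand), behaved differently from the 4 genes it regulates. Its level was 0.264, 0.165, 0.359, 0.154 and 0.202 FPKM in wild-type, 1.72, 1.44 and 1.33 FPKM in Bcl11bm/m and 0.893, 0.342, 0.547 and 0.677 FPKM for Bcl11bfl/fl:Cd4-Cre libraries. All 3 Bcl11bm/m libraries lay close together and above every library of the other groups, with replicate 1 at 1.20 times replicate 2. The mean over the 12 libraries was under 1 FPKM, so Ciita was not among the 10780 features fitted. In an exact two-sided permutation test the difference of 1.02 from wild-type gave p = 0.0357, the smallest that 3 against 5 libraries allow, and it was 0.96 without Bcl11bm/m replicate 1. Bcl11bfl/fl:Cd4-Cre libraries exceeded wild-type by 0.39 (exact permutation p = 0.0317), with 1 overlapping library, replicate 2.

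**Figure D1:**
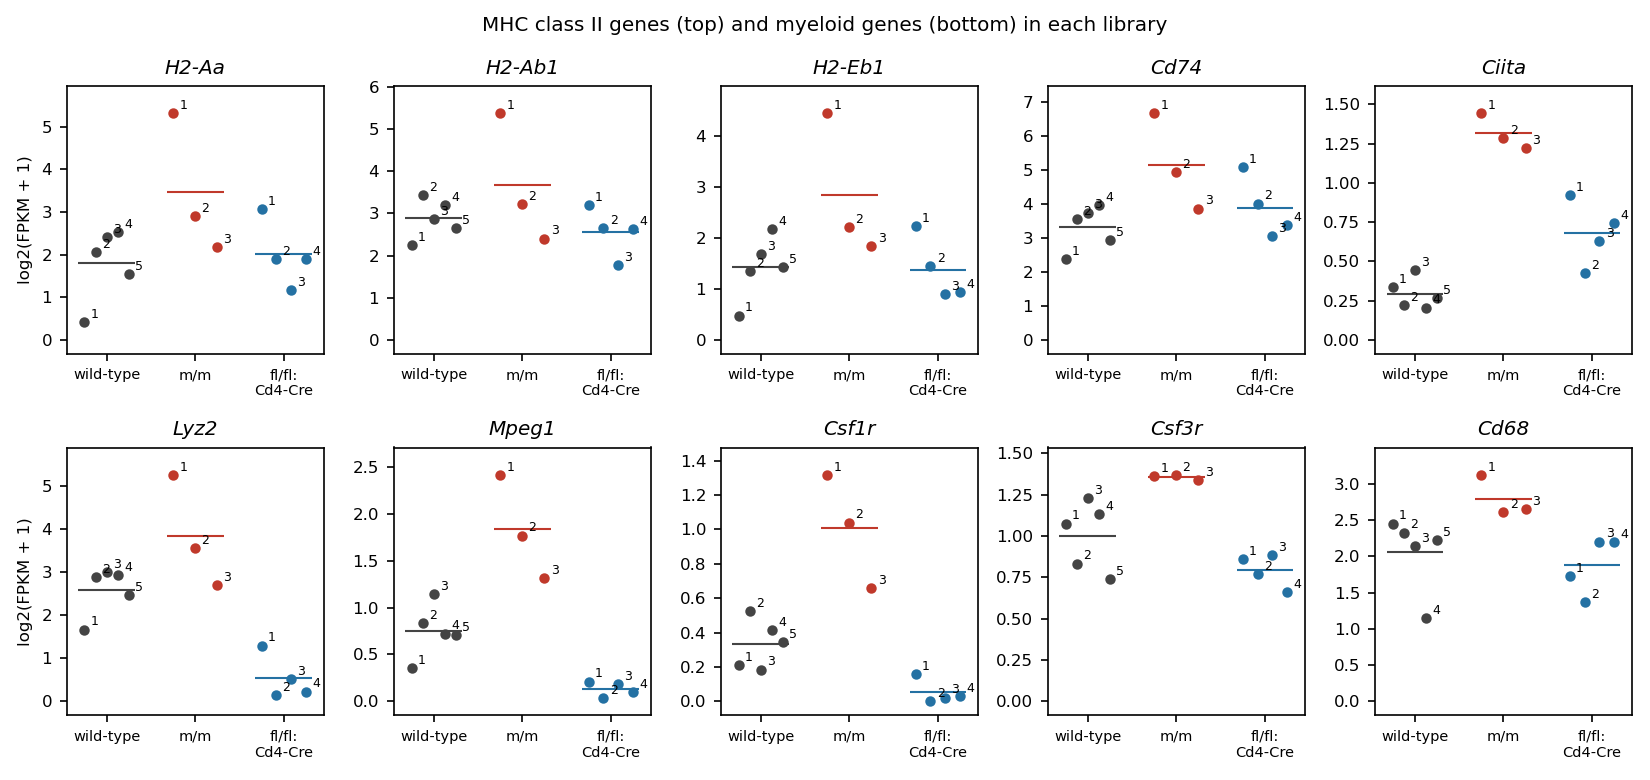
Level of each of the 10 genes as log2(FPKM + 1) (vertical axis) by group (horizontal axis, m/m for Bcl11bm/m and fl/fl:Cd4-Cre for Bcl11bfl/fl:Cd4-Cre), with 1 point per library, its replicate number beside it and the group mean as a line. Bcl11bm/m replicate 1 is the highest point in every panel but that of Csf3r, and Lyz2, Mpeg1 and Csf1r fall to their lowest levels in Bcl11bfl/fl:Cd4-Cre libraries.

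Among the myeloid genes, Lyz2, which encodes the lysozyme of macrophages and neutrophils (chr10:116714390-116719377, minus strand), had the widest range. Its FPKM was 2.19, 6.44, 7.05, 6.72 and 4.53 in wild-type, 37.7, 10.9 and 5.53 in Bcl11bm/m and 1.46, 0.107, 0.433 and 0.173 in Bcl11bfl/fl:Cd4-Cre libraries. Every Bcl11bfl/fl:Cd4-Cre library was below every library of the other groups, while Bcl11bm/m and wild-type overlapped. The Bcl11bfl/fl:Cd4-Cre mean was 0.101 times the wild-type mean, a fall by 2.05 on the log2 scale (standard error 0.32, adjusted p = 0.00538, limma), and without replicate 1 of that group it fell by 2.30 (adjusted p = 0.0136, limma). Bcl11bm/m exceeded wild-type by 1.25 (adjusted p = 0.170, limma) and by 0.54 without replicate 1. The Lyz2 values stand for about 16.6 to 43.8 fragments in wild-type and 74.4, 1.28, 8.40 and 2.55 fragments in Bcl11bfl/fl:Cd4-Cre replicates 1 to 4, so that replicates 2 and 4 were below a floor of 3 fragments. Lyz2 shares much of its sequence with Lyz1, which lies next to it, and reads could be split between them. Lyz1 was listed at 0.135 to 1.18 FPKM in wild-type, 0.445 to 3.79 FPKM in Bcl11bm/m and 0 to 0.174 FPKM for Bcl11bfl/fl:Cd4-Cre libraries.

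Mpeg1, the pore-forming perforin-2 of macrophages (chr19:12535269-12539774, plus strand), followed Lyz2. Its level was 0.278, 0.782, 1.21, 0.649 and 0.636 FPKM in wild-type, 4.33, 2.40 and 1.48 FPKM in Bcl11bm/m and 0.158, 0.0220, 0.138 and 0.0712 FPKM for Bcl11bfl/fl:Cd4-Cre libraries. The 3 groups did not overlap at any point, with Bcl11bm/m highest and Bcl11bfl/fl:Cd4-Cre lowest. Mpeg1 rose by 1.08 in Bcl11bm/m against wild-type (standard error 0.26, adjusted p = 0.0226, limma), a call that was lost without Bcl11bm/m replicate 1 (0.79, adjusted p = 0.0607), Bcl11bm/m replicate 2 (1.11, adjusted p = 0.0703) or wild-type replicate 5 (1.07, adjusted p = 0.0512). It fell by 0.62 in Bcl11bfl/fl:Cd4-Cre against wild-type (standard error 0.17, adjusted p = 0.0404, limma), and this call held in only 1 of the 9 fits that left out a library, that without wild-type replicate 1 (adjusted p = 0.0101), the others giving adjusted p from 0.0589 to 0.0926. Mpeg1 passed the filter of a mean of 1 FPKM only through its Bcl11bm/m values, the wild-type mean being 0.711 ± 0.337 FPKM (SD, n = 5), so its calls are given as a description. In fits of all features without a filter the adjusted p was 0.0307 for Bcl11bm/m and 0.0305 for Bcl11bfl/fl:Cd4-Cre against wild-type (limma).

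Csf1r, the receptor for the macrophage growth factor M-CSF (chr18:61265226-61291803, plus strand), was low throughout. It measured 0.157, 0.440, 0.136, 0.332 and 0.269 FPKM in wild-type, 1.49, 1.06 and 0.579 FPKM in Bcl11bm/m and 0.118, 0, 0.0155 and 0.02 FPKM for Bcl11bfl/fl:Cd4-Cre libraries. The 3 groups were again separate. Csf1r did not enter the fit; the difference between Bcl11bm/m and wild-type was 0.67 (exact permutation p = 0.0357), or 0.51 without Bcl11bm/m replicate 1, and that between Bcl11bfl/fl:Cd4-Cre and wild-type was -0.28 (exact permutation p = 0.0159), each the smallest p its design allows. A listed 0 can be a failed estimate, and Hmgxb3 overlaps Csf1r on the other strand.

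Csf3r, the receptor for the neutrophil growth factor G-CSF (chr4:125701794-125722219, plus strand), showed another pattern. It had 1.11, 0.782, 1.34, 1.19 and 0.668 FPKM in wild-type, 1.57, 1.59 and 1.53 FPKM in Bcl11bm/m and 0.818, 0.704, 0.845 and 0.581 FPKM for Bcl11bfl/fl:Cd4-Cre libraries. The Bcl11bm/m libraries lay close together, at 1.56 ± 0.0290 FPKM (SD, n = 3), and replicate 1 did not stand out among them. They were above all wild-type libraries, but the difference of 0.35, with or without replicate 1, did not pass (adjusted p = 0.105 with it, limma). Like Mpeg1, Csf3r averaged 1 FPKM over the 12 libraries only through its Bcl11bm/m values, and its tests are given as a description.

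Cd68, a glycoprotein of late endosomes in macrophages (chr11:69477715-69479655, minus strand), had 4.46, 4.02, 3.43, 1.21 and 3.68 FPKM in wild-type, 7.72, 5.12 and 5.28 FPKM in Bcl11bm/m and 2.32, 1.58, 3.61 and 3.57 FPKM for Bcl11bfl/fl:Cd4-Cre libraries. The Bcl11bm/m libraries were above all others. Neither the difference from wild-type of 0.74 in Bcl11bm/m (adjusted p = 0.139, limma, and 0.57 without replicate 1) nor that of -0.19 in Bcl11bfl/fl:Cd4-Cre (adjusted p = 0.701, limma) passed. With single libraries left out, the latter ranged from -0.41 to -0.017 and still did not pass. Cd68 did not follow the other genes within groups, since wild-type replicate 4, the lowest for Cd68, was the highest wild-type library for H2-Aa, H2-Eb1 and Cd74.

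Across the comparison of Bcl11bm/m with wild-type, Mpeg1, which entered the fit only through its high Bcl11bm/m values, was the 1 member called of the 8 fitted, where 17.3% of the 10780 features were called and 9.92% were called higher and 7.39% lower. 5 of the 10 members did not overlap between the groups, Ciita, Mpeg1, Csf1r, Csf3r and Cd68, all higher in Bcl11bm/m, while among the features fitted 14.6% did so. In all, 25.4% of those features did not overlap, 10.8% being lower. Ciita and Csf1r were not fitted, and Mpeg1 and Csf3r entered the fit only through their high Bcl11bm/m values. The count and the shares thus have different bases, and nothing is read from comparing them. The median difference was 1.41 over the 5 class II members and 0.74 over the 5 myeloid members, against -0.02 over all features fitted. Without Bcl11bm/m replicate 1 these medians were 0.75 and 0.54. For H2-Aa, H2-Ab1, H2-Eb1 and Cd74, Bcl11bm/m replicate 1 was far above wild-type while replicate 3 lay within the wild-type range.

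In Bcl11bfl/fl:Cd4-Cre against wild-type, Lyz2 and Mpeg1 were called lower among the 8 members fitted, where 14.5% of all features were called, 4.65% higher and 9.86% lower. The groups did not overlap for Lyz2, Mpeg1 and Csf1r, compared with 16.1% of features without overlap, 5.44% higher and 10.6% lower. Csf1r was not fitted and Mpeg1 entered the fit only through its Bcl11bm/m values, so members and features again have different bases. None of the 4 class II members fitted by limma passed, and 0 of them had an unadjusted p under 0.05, while Ciita, which was not fitted, gave the difference of 0.39 described above (exact permutation p = 0.0317). The estimates were 0.56 for Cd74 (95% interval -0.41 to 1.53), 0.22 for H2-Aa (-0.84 to 1.27), -0.32 for H2-Ab1 (-0.99 to 0.36) and -0.05 for H2-Eb1 (-0.85 to 0.76), so that changes of up to these sizes cannot be told from none. The sign of the H2-Aa and H2-Eb1 estimates changed when single libraries were left out, and the Cd74 estimate was 0.16 without Bcl11bfl/fl:Cd4-Cre replicate 1 and 0.33 without wild-type replicate 1. The H2-Ab1 estimate was -0.052 without Bcl11bfl/fl:Cd4-Cre replicate 3, -0.18 without wild-type replicate 2 and -0.53 without Bcl11bfl/fl:Cd4-Cre replicate 1. This comparison shares its wild-type libraries with the one above, and the 2 sets of values are not independent.

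Bcl11bm/m and Bcl11bfl/fl:Cd4-Cre libraries were also compared directly. Lyz2 was higher in Bcl11bm/m by 3.30 (standard error 0.59, adjusted p = 0.0181), Mpeg1 by 1.70 (0.25, adjusted p = 0.0107) and Csf3r by 0.56 (0.12, adjusted p = 0.0282), all by limma, where 10.2% of features were called, 7.63% higher and 2.6% lower. Lyz2 and Mpeg1 were called with each single library left out except for Lyz2 without Bcl11bm/m replicate 2 (adjusted p = 0.0592). The Csf3r call was lost without Bcl11bm/m replicate 2 or 3 or Bcl11bfl/fl:Cd4-Cre replicate 2 or 4 (adjusted p = 0.0568 to 0.0864, limma). Mpeg1 and Csf3r entered this fit only through the group in which they are high, so nothing is read from the count of 3 called members; without a filter their adjusted p was 0.0148 and 0.0177 (limma). The groups did not overlap for 6 members, the 5 myeloid genes and Ciita, against 26.7% of features without overlap, 18.9% higher and 7.76% lower. Ciita and Csf1r were not fitted, so here too members and features have different bases. With 3 against 4 libraries the exact permutation test cannot go below p = 0.0571, which Csf1r (0.95) and Ciita (0.64) reached. H2-Aa, H2-Ab1, H2-Eb1 and Cd74 were higher by 1.10 to 1.46 with overlapping groups, and none passed (adjusted p = 0.184 to 0.326, limma). Without Bcl11bm/m replicate 1 they were higher by 0.53, 0.25, 0.65 and 0.52 in this order, and Lyz2 by 2.59, Mpeg1 by 1.41, Csf3r by 0.56, Cd68 by 0.76, Csf1r by 0.80 and Ciita by 0.57.

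**Figure D2:**
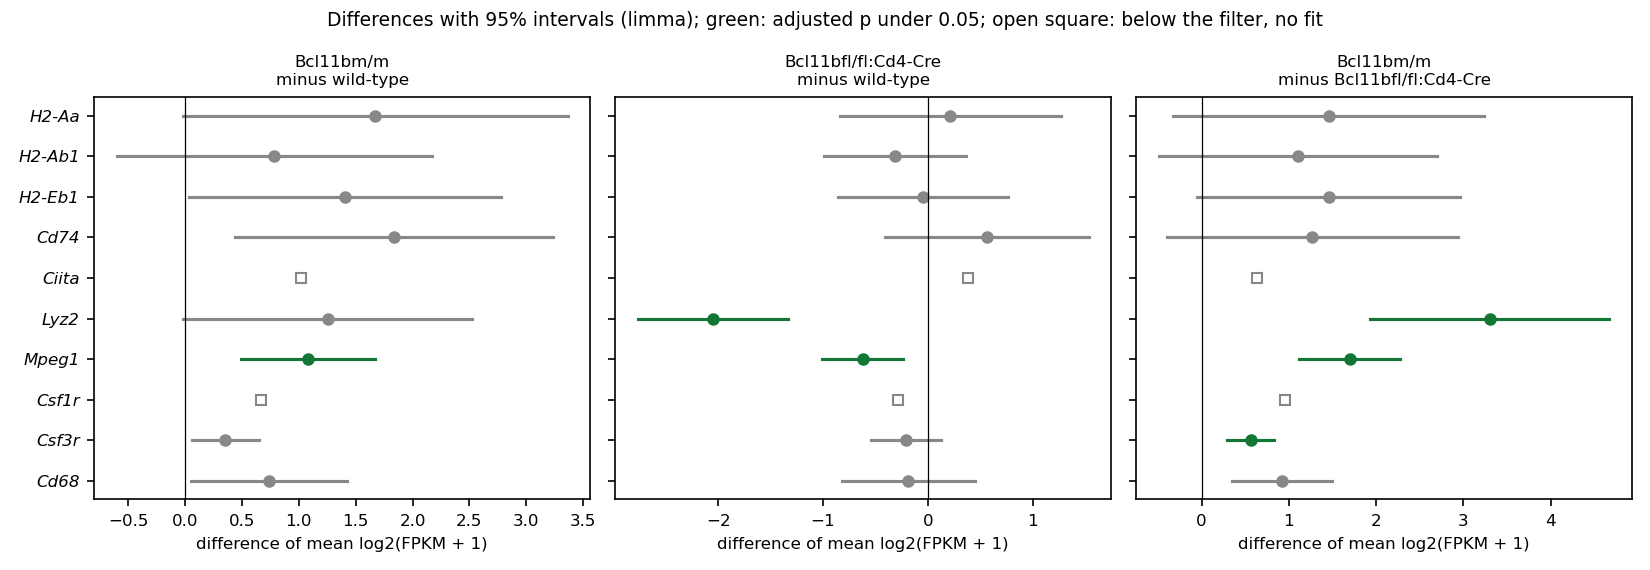
Differences of mean log2(FPKM + 1) for the 10 genes in the 3 comparisons (horizontal axes, with their own scales), as points with 95% intervals from limma, and open squares for Ciita and Csf1r, which were below the filter. Green marks an adjusted p under 0.05, reached by Mpeg1 in all 3 comparisons, by Lyz2 in both with Bcl11bfl/fl:Cd4-Cre and by Csf3r between the mutants, although Mpeg1 and Csf3r passed the filter only through their high Bcl11bm/m values.

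To separate shared movement from the group differences, the deviation of each library from its group mean was correlated between members over the 12 libraries, for all 45 pairs. Permutations shuffled libraries within groups (two-sided, 100000 resamples), and p-values were adjusted over the 45 pairs. H2-Aa and Cd74 deviated together with Pearson r = 0.97 and Spearman rho = 0.97 (permutation p = 8e-05 for each, adjusted p = 0.0033 and 0.0036). Without the 2 libraries farthest from the median, Bcl11bm/m replicate 1 and wild-type replicate 1, r was 0.96. The 6 pairs among H2-Aa, H2-Ab1, H2-Eb1 and Cd74 had r from 0.90 to 0.97, and each of them passed after adjustment. The 4 pairs of Ciita with these genes had r from 0.38 to 0.46 and did not pass (adjusted p = 0.269 to 0.370).

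The myeloid genes did not all move together. Lyz2 and Mpeg1 had r = 0.92 and rho = 0.93 (permutation p = 0.00022 and 0.0002, adjusted p = 0.0033 and 0.00439), and r = 0.78 without Bcl11bm/m replicates 1 and 3. The other 9 myeloid pairs did not pass, and all pairs with Csf3r or Cd68 lay between -0.28 and 0.42. The highest of these 9 was Lyz2 with Csf1r (r = 0.82, permutation test, adjusted p = 0.0889), with r = 0.52 without Bcl11bm/m replicates 1 and 3. Across the classes, 6 of 25 pairs passed by r and 3 by rho, and the strongest joined Lyz2 to H2-Aa (r = 0.94, rho = 0.85, permutation p = 0.00202 and 0.00541, adjusted p = 0.0119 and 0.0271) and to H2-Eb1 and Cd74 (r = 0.92 for each). Without the 2 farthest libraries Lyz2 had r = 0.88 with H2-Aa and 0.83 with Cd74, whereas r fell from 0.68 to 0.078 for Mpeg1 and Csf1r, from 0.78 to 0.37 for H2-Ab1 and Mpeg1 and from 0.73 to 0.40 for H2-Eb1 and Csf1r, so that these pairs rest on the libraries left out, Bcl11bm/m replicates 1 and 3. The median r was 0.91 within class II, 0.52 between the classes and 0.18 within the myeloid genes, and 0.80, 0.41 and 0.10 without Bcl11bm/m replicate 1. Depth differed between the groups and within them, and Ciita, Csf1r and Csf3r had low FPKM, at which counting error can lower r. The part of depth and of counting error in these values was not tested.

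**Figure D3:**
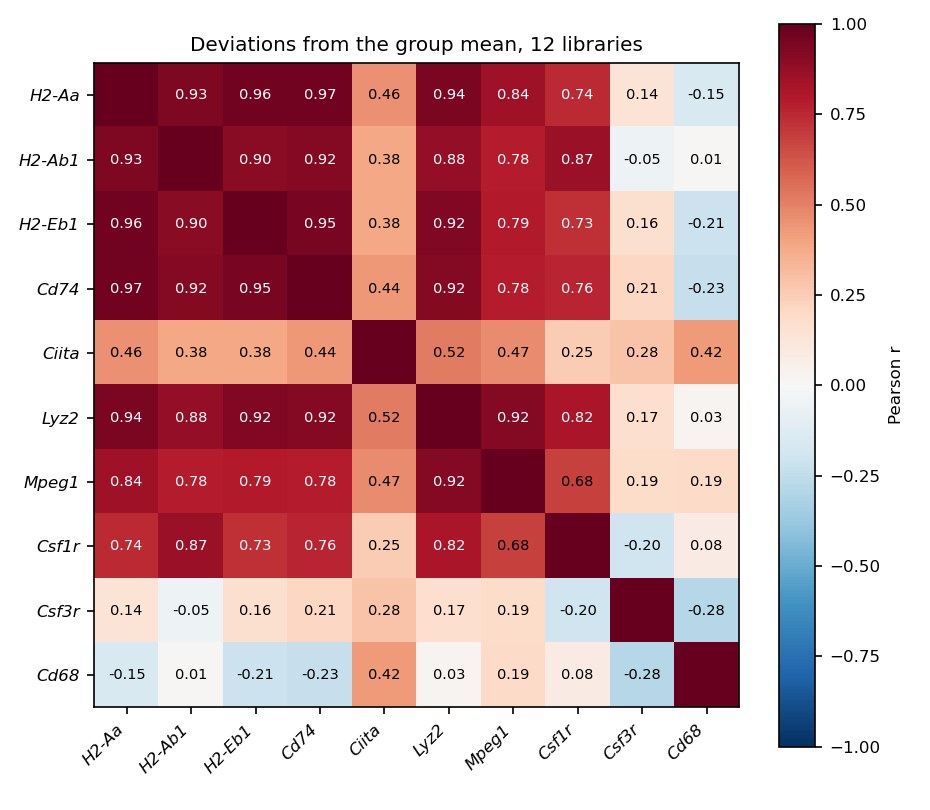
Pearson r between the 10 genes (both axes) of the deviations of log2(FPKM + 1) from the group mean over 12 libraries, with the value in each cell and the colour scale running from -1 to 1. H2-Aa, H2-Ab1, H2-Eb1, Cd74, Lyz2, Mpeg1 and Csf1r form a block of values of at least 0.68 over all 12 libraries, part of which is lost without Bcl11bm/m replicates 1 and 3, whereas Ciita, Csf3r and Cd68 lie outside it.

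Although Lyz2 and Cd74 deviated together from their group means over the 12 libraries (r = 0.92), their ratio differed between the groups. In Bcl11bfl/fl:Cd4-Cre replicates 2 to 4, however, their order was opposite. Cd74 was at 15.0, 7.22 and 9.44 FPKM there and Lyz2 at 0.107, 0.433 and 0.173 FPKM. The Lyz2 values of replicates 2 and 4 were below the floor of 3 fragments. The Lyz2 to Cd74 ratio of FPKM was 0.460 to 0.680 in wild-type libraries, 0.371 to 0.410 in Bcl11bm/m and 0.00709 to 0.0600 for Bcl11bfl/fl:Cd4-Cre libraries, with no overlap between the groups. In contrast, the H2-Aa to Cd74 ratio was 0.0796 to 0.351, 0.219 to 0.388 and 0.173 to 0.288 in these groups, which overlapped. The Mpeg1 to Lyz2 ratio was 0.0966 to 0.172, 0.115 to 0.268 and 0.108 to 0.413. These ratios were not tested. Bcl11bfl/fl:Cd4-Cre replicate 1 shows the difference in a single library, having the second highest Cd74 of the 12 (32.8 FPKM) and a Lyz2 value (1.46 FPKM) below every wild-type library.

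Markers of other thymic cells were measured in the same libraries. Their part in the results for the members was not tested. The genes whose pattern over the 12 libraries was closest to Lyz2 by Pearson r, among all features fitted, were C1qc (r = 0.99), C1qb (0.97), C1qa (0.96), H2-Q4 (0.95) and Lgals3 (0.95). The C1q genes encode complement chains made by macrophages, and Lgals3 encodes galectin-3. For Cd74 the closest were H2-M5 (0.89), Plac8 (0.88), Snai3 (0.87), Gm9897 (0.86) and Erlin2 (0.86). These values include the group differences and carry no test.

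C1qc had 0.845, 2.47, 3.83, 2.58 and 2.51 FPKM in wild-type, 19.3, 5.13 and 2.78 FPKM in Bcl11bm/m and 0.434, 0, 0.0669 and 0.0865 FPKM for Bcl11bfl/fl:Cd4-Cre libraries. Its pattern resembled that of Lyz2, with Bcl11bm/m replicate 1 highest and all Bcl11bfl/fl:Cd4-Cre libraries lowest. C1qc fell by 1.54 in Bcl11bfl/fl:Cd4-Cre against wild-type (adjusted p = 0.00656, limma), and C1qb fell by 1.43 (adjusted p = 0.0110). Between Bcl11bm/m and wild-type C1qa gave 1.44 (adjusted p = 0.0634), C1qc 1.24 (adjusted p = 0.154) and C1qb 1.58 (adjusted p = 0.0338), and without Bcl11bm/m replicate 1 they gave 0.91, 0.55 and 1.16 in this order, and none passed. C1qa passed only without wild-type replicate 4 (adjusted p = 0.0418) or Bcl11bm/m replicate 3 (adjusted p = 0.0448, limma). C1qb did not pass without Bcl11bm/m replicate 1 (adjusted p = 0.111, limma), nor did it without Bcl11bm/m replicate 2 (adjusted p = 0.0924) or wild-type replicate 5 (adjusted p = 0.0737). Of the 38 listed myeloid and macrophage genes, which include the 5 members, 21 were fitted. Between Bcl11bm/m and wild-type 7 of them were higher and 1 was lower, between Bcl11bfl/fl:Cd4-Cre and wild-type 6 were lower and none higher, and between the mutants 9 were higher in Bcl11bm/m, among them C1qb by 3.01 (adjusted p = 0.00444) and Tyrobp by 2.84 (adjusted p = 0.0247). Over all features 9.92% were higher and 7.39% lower in the first of these comparisons, 4.65% higher and 9.86% lower in the second and 7.63% higher in the last. Some of the fitted genes, such as Mpeg1, Csf3r and Lgals3, entered only through their Bcl11bm/m values, so the counts are a description. The C1qb call held in 7 of 7 fits that left out a library and the Tyrobp call in 1, that without Bcl11bfl/fl:Cd4-Cre replicate 3. Leaving out single libraries, the counts were lowest at 4 higher against wild-type, without Bcl11bm/m replicate 1 or wild-type replicate 5, and at 3 higher between the mutants, without Bcl11bm/m replicate 2 (7 without replicate 1). The 6 lower genes became 4 to 8, with 2 higher only without Bcl11bfl/fl:Cd4-Cre replicate 2. The median difference over the fitted genes was 0.75, -0.21 and 0.62 in these comparisons, against -0.02, -0.09 and 0.09 over all features. Over all 38 listed genes, fitted or not, it was 0.39, -0.16 and 0.42.

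The summed level of the myeloid list overlapped between the groups. It was 320 to 574 FPKM in wild-type, 331 to 581 FPKM in Bcl11bm/m and 362 to 391 FPKM for Bcl11bfl/fl:Cd4-Cre libraries, with Ctsd alone, a lysosomal protease, at 109 to 263 FPKM. No member of the list was at 0 in all wild-type libraries, Timd4 was at 0 in all Bcl11bm/m libraries and Cd14 in all Bcl11bfl/fl:Cd4-Cre libraries.

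Other genes of the myeloid list were higher in all 3 Bcl11bm/m libraries than in any wild-type library. Tyrobp, which encodes the adaptor DAP12 of myeloid and NK cells, had 21.2, 13.4 and 8.47 FPKM in Bcl11bm/m libraries and 0.397 to 2.07 FPKM in wild-type (difference 2.71, adjusted p = 0.00110, limma). Fcer1g, the FcRγ adaptor of the same cells, had 40.2, 10.1 and 8.83 FPKM in Bcl11bm/m libraries and 0.632 to 2.76 FPKM in wild-type (2.86, adjusted p = 0.00570, limma, and 2.20 without replicate 1). Aif1, a macrophage calcium-binding protein, was higher by 1.96 (adjusted p = 0.00248, limma). Fcer1g was also at 10.4, 1.20, 42.2 and 8.43 FPKM for Bcl11bfl/fl:Cd4-Cre replicates 1 to 4, where it did not follow Lyz2 or the C1q genes, and the difference from wild-type of 2.14 did not pass (adjusted p = 0.0621, limma).

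Neutrophil transcripts were at or near 0. None of the 13 listed genes reached the filter. S100a8 and S100a9 were listed at 0 in all wild-type and Bcl11bm/m libraries and Mpo in all Bcl11bm/m libraries, while S100a8 reached 0.967 FPKM and S100a9 0.640 FPKM for Bcl11bfl/fl:Cd4-Cre replicate 2. Mpo was at most 0.123 FPKM, in wild-type replicate 1. The summed level was 0 to 0.310 FPKM in wild-type, 0 to 0.808 FPKM in Bcl11bm/m and 0 to 2.25 FPKM for Bcl11bfl/fl:Cd4-Cre libraries. Of the rest of the list, Camp was at 0.597 FPKM in Bcl11bm/m replicate 3 and Chi3l3 at 0.684 FPKM in Bcl11bm/m replicate 1, both listed at 0 in all wild-type libraries.

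Of the 20 dendritic cell genes, 8 were fitted. Of these, 1 was called higher in Bcl11bm/m than in wild-type and 2 higher than in Bcl11bfl/fl:Cd4-Cre, with none lower. Over all features 9.92% and 7.63% were higher in these comparisons, and with 8 genes nothing about the list is read from the counts. The first count was 2 without wild-type replicate 4. The second was 1 without Bcl11bm/m replicate 1, 2 or 3 or Bcl11bfl/fl:Cd4-Cre replicate 1 or 4. Flt3, a growth factor receptor of early progenitors and dendritic cells, had 2.86, 4.42 and 5.81 FPKM in Bcl11bm/m libraries and 0 to 0.218 FPKM in wild-type (2.26, adjusted p = 1.26e-04, limma). Like Mpeg1, it entered the fit only through its Bcl11bm/m values, and it also passed without a filter (adjusted p = 2.05e-04, limma). Its order within Bcl11bm/m was opposite to that of the class II genes, with replicate 1 lowest. Flt3 was also higher than in the Bcl11bfl/fl:Cd4-Cre group by 1.98 (adjusted p = 0.00706, limma), as was Naaa, a lysosomal amidase, by 0.75 (adjusted p = 0.0320), the Naaa call holding in 2 of 7 fits that left out a library, those without Bcl11bfl/fl:Cd4-Cre replicate 2 or 3. Itgax, which encodes CD11c, was at 1.19 FPKM in Bcl11bm/m replicate 1 and at most 0.127 FPKM in the other 11 libraries. Zbtb46, a factor of classical dendritic cells, was listed at 0 in every wild-type and Bcl11bm/m library. The list summed to 99.6 to 193 FPKM in wild-type, 134 to 239 FPKM in Bcl11bm/m and 148 to 171 FPKM for Bcl11bfl/fl:Cd4-Cre libraries.

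B cells also carry class II. Cd79a, a chain of the B cell receptor, had 0.384, 0.431, 0.446, 0.217 and 0.439 FPKM in wild-type, 10.7, 1.08 and 0.210 FPKM in Bcl11bm/m and 3.92, 1.78, 0.911 and 1.38 FPKM for Bcl11bfl/fl:Cd4-Cre libraries. Its highest library was Bcl11bm/m replicate 1 and its next highest Bcl11bfl/fl:Cd4-Cre replicate 1, as for Cd74. Cd79a rose by 1.02 in Bcl11bfl/fl:Cd4-Cre against wild-type (adjusted p = 0.0237, limma), the only one of 7 fitted B cell genes called in any of the 3 comparisons, and the call was lost without wild-type replicate 4 (adjusted p = 0.0502) or 5 (adjusted p = 0.0516). A count of 1 in 7 is close to the 14.5% of all features called in this comparison, and nothing about the list is read from it. Ms4a1, which encodes CD20, was at 1.97 FPKM in Bcl11bm/m replicate 1 and listed at 0 in replicates 2 and 3, and it was at 0.843, 0.441, 0.307 and 0.278 FPKM for Bcl11bfl/fl:Cd4-Cre libraries, above the wild-type maximum of 0.0887 FPKM.

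The Cd79a to Cd74 ratio was 0.118 to 0.146 in the 4 Bcl11bfl/fl:Cd4-Cre libraries, above the 0.0149 to 0.0919 of wild-type and the 0.0156 to 0.107 of Bcl11bm/m, and these ratios were not tested either. Cd79b did not rise with Cd79a. It was at 12.4 to 20.7 FPKM in wild-type, 5.85 to 21.7 FPKM in Bcl11bm/m (median 7.60) and 9.78 to 21.2 FPKM for Bcl11bfl/fl:Cd4-Cre libraries. The differences from wild-type were -0.68 in Bcl11bm/m (adjusted p = 0.266, limma) and -0.14 in Bcl11bfl/fl:Cd4-Cre (adjusted p = 0.720, limma). Pax5, the factor that fixes B cell identity, was listed at 0 in all wild-type libraries, and it was at 0.364 FPKM in Bcl11bm/m replicate 1 and 0.562 FPKM for Bcl11bfl/fl:Cd4-Cre replicate 1. The 17 listed B cell genes summed to 74.4 to 135 FPKM in wild-type, 125.6 to 182 FPKM in Bcl11bm/m and 101 to 139 FPKM for Bcl11bfl/fl:Cd4-Cre libraries.

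**Figure D4:**
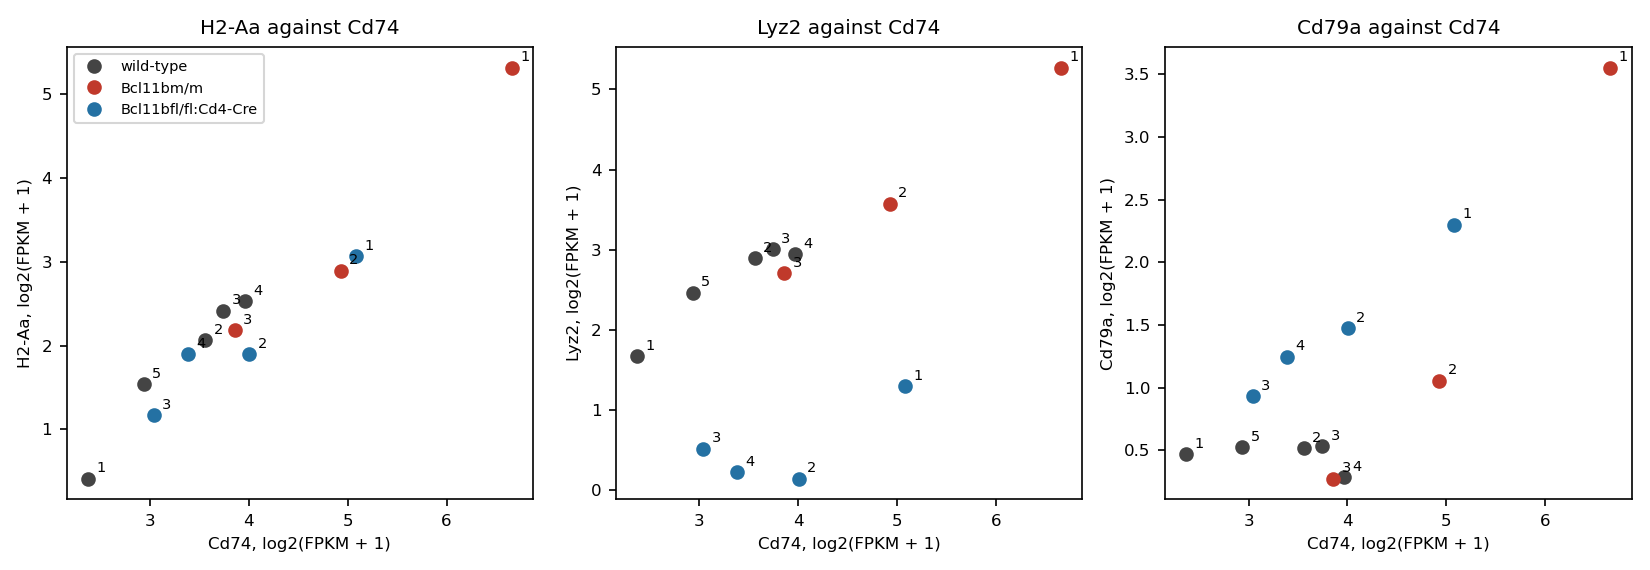
H2-Aa (left), Lyz2 (middle) and Cd79a (right) against Cd74, all as log2(FPKM + 1), with 1 point per library coloured by group and numbered by replicate. H2-Aa follows Cd74 in all 12 libraries, the 4 Bcl11bfl/fl:Cd4-Cre libraries lie below the others for Lyz2, and Cd79a is high with Cd74 in Bcl11bm/m replicate 1 and Bcl11bfl/fl:Cd4-Cre replicate 1.

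Epithelial transcripts were examined because thymic epithelium is rich in class II. Krt5 was at 0 to 0.184 FPKM, Krt8 at 0.0542 to 1.37 FPKM and Foxn1, the factor that defines this epithelium, was listed at 0 in all Bcl11bm/m libraries. Of 6 fitted genes of the list, Ly75 was higher in Bcl11bm/m than in wild-type by 1.29 (adjusted p = 0.0364, limma), and 3 were lower, among them Cldn4, a tight junction protein, by -3.32 (adjusted p = 0.00216) and Epcam, an adhesion molecule, by -1.61 (adjusted p = 9.20e-04). Over all features 9.92% were higher and 7.39% lower, and with 6 genes nothing about the list is read from these counts. The Ly75 call held in 3 of 8 fits that left out a library, those without wild-type replicate 1, 2 or 3. Epcam also fell by 1.18 in Bcl11bfl/fl:Cd4-Cre against wild-type (adjusted p = 0.00814, limma), but it entered the fits only through its wild-type values. Between the mutants Ly75 was higher in Bcl11bm/m by 0.94 (adjusted p = 0.0243, limma, a call held in 3 of 7 such fits, those without Bcl11bfl/fl:Cd4-Cre replicate 2, 3 or 4) and Cldn4 lower by -3.02 (adjusted p = 0.00704). Epcam was the 1 gene of the 6 called against wild-type in Bcl11bfl/fl:Cd4-Cre, where 14.5% of all features were called, and Ly75 and Cldn4 were the 2 called between the mutants, where 10.2% were. The list summed to 69.0 to 117 FPKM in wild-type, 48.5 to 58.0 FPKM in Bcl11bm/m and 48.7 to 431 FPKM for Bcl11bfl/fl:Cd4-Cre libraries, the highest sum including Ctsl at 411 FPKM in replicate 2.

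**Figure D5:**
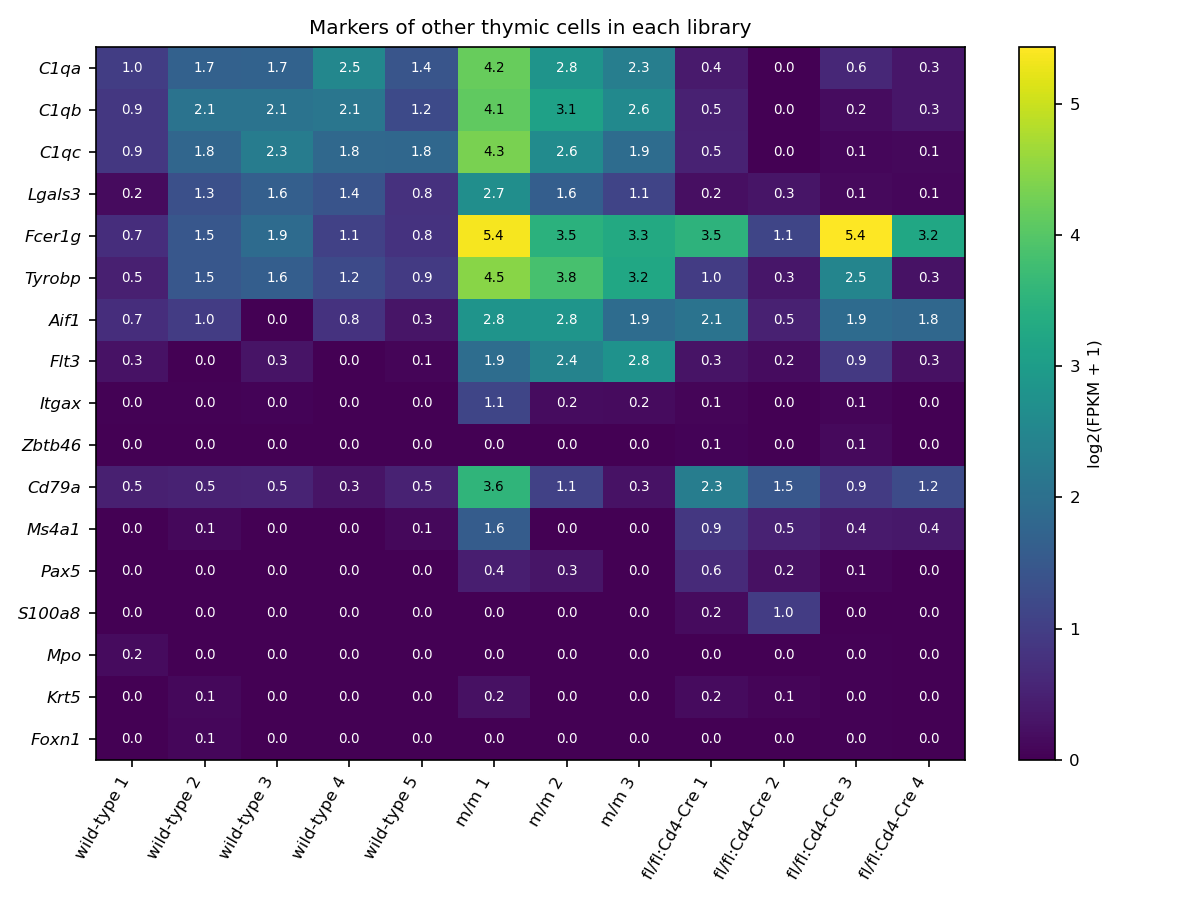
Level of 17 marker genes of macrophages, dendritic cells, B cells, neutrophils and epithelium (vertical axis) in the 12 libraries (horizontal axis, with m/m for Bcl11bm/m), coloured and printed as log2(FPKM + 1). The C1q genes are highest in Bcl11bm/m replicate 1 and near 0 in Bcl11bfl/fl:Cd4-Cre libraries, Fcer1g is high in libraries of both mutants, and Zbtb46, Mpo, Krt5 and Foxn1 stay near 0.

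The rest of the class II pathway gave a further view of the members. Of 24 listed genes, 18 were fitted, among them 4 members, and 2 were higher and 2 lower in Bcl11bm/m than in wild-type. Only 1 was higher without Bcl11bm/m replicate 1 or 2 or wild-type replicate 3, while 4 were higher without Bcl11bm/m replicate 3 and 4 lower without wild-type replicate 1. These counts are near the 9.92% higher and 7.39% lower over all features, and nothing about the list is read from them. H2-Oa, the alpha chain of the inhibitor of peptide loading, was at 49.7, 41.5 and 34.9 FPKM in Bcl11bm/m, 7.48 to 20.2 FPKM in wild-type and 11.7 to 19.5 FPKM for Bcl11bfl/fl:Cd4-Cre libraries. All 3 Bcl11bm/m libraries were above the rest, whereas Bcl11bm/m replicate 3 lay within the wild-type range for H2-Aa. H2-Oa rose by 1.34 against wild-type (standard error 0.31, adjusted p = 0.0197, limma) and was higher by 1.33 against Bcl11bfl/fl:Cd4-Cre (adjusted p = 0.0108). The call against wild-type was lost without Bcl11bm/m replicate 1 (1.21, adjusted p = 0.0778) or 2 (1.34, adjusted p = 0.0730). It was the only 1 of the 18 fitted genes called between the mutants, where 10.2% of all features were called.

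Lgmn, a protease that trims the invariant chain, was higher by 1.29 (adjusted p = 0.0279, limma, and 0.0597 without wild-type replicate 3), and Ctsl, which degrades it in epithelium, was lower by -0.92 (adjusted p = 0.00897). Of the subunits of NF-Y, which binds the Y box, Nfya was lower by -0.65 in Bcl11bm/m (adjusted p = 0.00272, limma) and Nfyb fell by 0.87 in Bcl11bfl/fl:Cd4-Cre against wild-type (adjusted p = 0.0174), the only 1 of the 18 called in that comparison, where 14.5% of all features were, and not without Bcl11bfl/fl:Cd4-Cre replicate 1, 3 or 4 (adjusted p = 0.0515 to 0.0557). Rfx5, Rfxap and Rfxank, whose products bind the X box, gave -0.17, -0.46 and -0.26 between Bcl11bm/m and wild-type, and none passed. The median difference of the 18 fitted genes was 0.62, -0.04 and 0.45 in the 3 comparisons. Over all 24 listed genes, fitted or not, it was 0.45, 0.0013 and 0.42.

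Several transcripts of the sorted population itself were lower in Bcl11bm/m. Of 12 listed genes of CD4+CD8+ thymocytes, all fitted, 7 were lower than in wild-type, with Ptcra, the pre-TCR alpha chain, at -2.22 (adjusted p = 7.58e-04), Cd24a, which encodes a marker used in the sort, at -1.15 and Cd4 at -0.99, by limma, where 7.39% of all features were lower. The count was 5 without Bcl11bm/m replicate 1 and lowest, at 3, without replicate 2. Only Cd24a was called lower in Bcl11bfl/fl:Cd4-Cre against wild-type (4 genes without wild-type replicate 1 and 3 without Bcl11bfl/fl:Cd4-Cre replicate 2), a count near the 9.86% of all features called lower there, and only Cd3e was called between the mutants, being lower in Bcl11bm/m (-0.46, adjusted p = 0.0473, limma), a call that held in 0 of 7 fits that left out a library (adjusted p = 0.0750 to 0.131). Of all features 10.2% were called between the mutants, 2.6% being lower, and nothing about the list is read from this count. Without Bcl11bfl/fl:Cd4-Cre replicate 3 the count there was 2, Cd3e not among them, and without any other single library it was 0. The summed level of the 12 genes was 6241 to 8517 FPKM in wild-type, 4639 to 5216 FPKM in Bcl11bm/m and 4636 to 6738 FPKM for Bcl11bfl/fl:Cd4-Cre libraries. Whether lower thymocyte transcripts had a part in the class II and myeloid values was not tested.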

How the data were processed

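RNA-seq libraries of sorted thymocytes were analysed from the table of FPKM values that the authors deposited, with 1 column for each of the 12 libraries. According to the submitters' processing notes, reads were mapped with TopHat2 2.8.0 to mm9 and FPKM were computed with Cufflinks 2.1.1. No scaling between libraries is stated. The methods of the study describe a strand-specific kit, whereas in the labels a kit for low input and other sorted cells are described. This leaves library chemistry, strand use and the cells sequenced uncertain. Nothing states that libraries came from separate animals, and p-values then measure only the spread between these libraries.

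All tests used log2(FPKM + 1). Features averaging 1 FPKM or more across the 12 libraries, 10780 in number, entered limma 3.58.1 (R 4.3.3) with a mean-variance trend in eBayes. Each fit held the pair of groups compared, tests were two-sided, and p-values were adjusted by Benjamini-Hochberg. Exact permutation tests over libraries were used for single members. Python 3.11.15 with pandas 2.3.3, numpy 2.4.6, scipy 1.17.1 and matplotlib 3.10.9 was used for other steps.

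Depth was estimated from genes with a single transcript, by choosing the step whose whole multiples best matched their low values. At the chosen step, 66.1 to 71.2% of low values lay within 0.1 of a whole multiple. An even spread gives 20% for a step fixed beforehand. Because the step was chosen for this match, the contrast is not a test of the depths. Estimated fragments and floors of 3 fragments cover counting error only. In simulated data, 200 of 10780 features, drawn at random, were changed by 1.5 on the log2 scale. Of these, 87% were recovered with 2.8% false calls between Bcl11bm/m and wild-type. The shares were 88% with 2.2% between Bcl11bfl/fl:Cd4-Cre and wild-type, and 83% with 4.0% between the mutants. Values were drawn independently with each feature's own SD, so a library in which many genes rise at once was not simulated. The shares therefore do not give the power for the members.

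The members and the 7 marker lists were chosen with earlier results of these data known. Named were all members, the first 3 genes of each list, up to 3 genes per list and comparison with an adjusted p under 0.05 and the largest changes, and the 5 features closest to Cd74 and to Lyz2. C1qa, Camp, Cd14, Chi3l3, Ctsd, Foxn1, Ms4a1, Nfya, Pax5, Rfx5, Rfxap, Rfxank and Timd4 were named beyond this rule, after their values were seen. 1 gene that the rule names is not reported here. Genes of the lists that the table does not name were not analysed here. Alternatives were a pseudocount of 0.1, no filter, a filter at 5 FPKM, scaling by median ratios, a single fit of all 3 groups, a replicate block and leaving out each library.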

Additional observations from a re-analysis of the deposited data

Results flagged for a closer look

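In the test of single libraries within groups of 4 or 5, Cd68 in wild-type replicate 4, at 1.213 FPKM, lay further below the other 4 wild-type libraries (3.43 to 4.46 FPKM) than the 95% limit for a gap of this kind allows. 20 groups of the 10 genes were tested in this way, of which chance gives about 1, and 1 was found. Groups of 3 libraries, such as Bcl11bm/m, were not tested, so the height of Bcl11bm/m replicate 1 is a description.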

How the results depend on the processing

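The main counts of called features were 1866, 1564 and 1102 for Bcl11bm/m against wild-type, Bcl11bfl/fl:Cd4-Cre against wild-type and Bcl11bm/m against Bcl11bfl/fl:Cd4-Cre, and the counts of called members were 1, 2 and 3 in this order. With a mean of at least 5 FPKM, at which fewer genes are tested, 1189 and 656 features were called in the first and the last comparison, and 0, 1 and 1 members. Without a filter 3, 3 and 5 members were called. Median-ratio scaling gave 0, 1 and 2 members, Mpeg1 then falling below the filter in all 3 comparisons, and the single fit gave 1, 1 and 2, losing Mpeg1 in the second and Csf3r in the third (adjusted p = 0.0549, limma). The scaling moved the median of all features in the second comparison from -0.09 to 0.01, and it turned the H2-Eb1 difference there from -0.05 to 0.049. Leaving out single libraries, features called ranged over 1021 to 2349, 700 to 2678 and 313 to 1121, and members over 0 to 2, 1 to 2 and 1 to 3. In these fits H2-Ab1 ranged over -0.070 to 1.42 in the first comparison, and H2-Aa over -0.14 to 0.50 and H2-Eb1 over -0.33 to 0.14 in the second. With a replicate block, 293, 445 and 46 features and 0, 0 and 0 members were called. The numbers share no stated source, so the main fits did not treat same-numbered libraries as pairs. Deviations of same-numbered libraries correlated between -0.21 and 0.15. With groups this small, these values cannot decide whether the numbers mark pairs. The causes of these shifts were not tested. A pseudocount of 0.1 changed no call of a member but moved all 6 differences of Ciita and Csf1r by more than the replicate spread (Csf1r in the second comparison from -0.28 to -1.41) and the Mpeg1 difference there from -0.62 to -1.99. Depth limits Lyz2 in Bcl11bfl/fl:Cd4-Cre replicates 2 and 4 and Mpeg1 in replicate 2, which lay below 3 fragments.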
